A study of Mus musculus with 8 samples.

Results

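The genes described here encode subunits of the NMDA and kainate classes of glutamate-gated ion channels. They were chosen by name (*Grin1*, *Grin2a*, *Grin2b*, *Grin2c*, *Grin2d*, *Grin3a*, *Grik1*, *Grik2*, *Grik3* and *Grik5*), the rows of the count table that carry each name were summed, and all 10 were found among the 23335 gene names of the table, 6 for NMDA and 4 for kainate receptor subunits. Every NMDA receptor contains the obligatory subunit encoded by *Grin1*, and the *Grin2* subunits that join it set how long the channel stays open, how strongly magnesium blocks it and how the receptor is anchored. In the forebrain *Grin2b* and *Grin2d* are prominent early in life and *Grin2a* is gained as circuits mature, while in the adult cortex *Grin2d* is known mostly from interneurons. Kainate receptors act on both sides of the synapse and are well known in cortical and hippocampal interneurons.

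Transcripts were counted in cells picked by hand from mouse frontal cortex, each carrying red fluorescence from the Ai14 reporter. Chandelier cells (ChC) came from *Nkx2.1*-CreER; Ai14 animals that had received tamoxifen (150 µl at 20 mg/ml) at E17.5, and Pv cells came from *Pv*-ires-Cre; Ai14 animals. ChC batches 1 and 2 came from animal 1 at postnatal day 31 and batches 3 and 4 from animal 2 at day 32, and Pv batches 5 and 6 came from animal 3 at day 29 and batches 7 and 8 from animal 4 at day 35. All 4 animals were labelled female and wild type apart from these alleles, and the slices of all of them were held in blockers of NMDA receptors (AP5), of AMPA and kainate receptors (CNQX) and of sodium channels (TTX) while the cells were isolated. *Nkx2.1*-CreER marks cells that descend from progenitors active at the time of tamoxifen and so enriches for ChC without selecting them alone, and *Pv*-ires-Cre marks any cell that has made parvalbumin. The labels of the Pv samples repeat the tamoxifen treatment of the *Nkx2.1*-CreER line beside their own genotype, so whether Pv animals received it is not settled by the labels. Each batch, animal and mouse line held a single cell type, so that cell type, line and batch cannot be told apart, and neither can tamoxifen if ChC animals alone received it.

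Of 128 cell columns, 126 had counts, 63 in each cell type. The unit is the UMI, a molecule marked by its varietal tag and counted once in each row. Totals were 527743, 657957, 2898413 and 1307666 UMI in ChC batches 1 to 4 and 456458, 501563, 370238 and 921212 UMI in Pv batches 5 to 8. All depths given here sum over rows, which can count a molecule more than once. With only the row of most UMI per gene name, the totals were 448121, 556405, 2460679 and 1123083 UMI in ChC batches. In Pv batches they were 392580, 430860, 316540 and 797177 UMI. A median ChC cell had 39200 UMI (range 1053 to 606191) and a median Pv cell 27116 (range 2325 to 108081). Levels are given below as CPM, the counts of a gene relative to the total of its batch after TMM scaling. This scaling evens out differences in composition between libraries. For these CPM the total was taken over the 6481 genes that passed a filter on low counts with batches as samples. Limits for a count of 0 use the total UMI of all genes. Tests compared 2 ChC with 2 Pv animals, after adding up the UMI of an animal's cells.

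The labels were checked against marker genes for GABAergic and Pv cells, and no list of markers for ChC alone was used. All 8 genes of a list for GABAergic interneurons were found, and their summed level lay between 4882 CPM (batch 7) and 11771 CPM (batch 2), with *Erbb4* the most abundant. This sum was higher in every ChC batch (9924 CPM or more) than in every Pv batch (8903 CPM or less). Of the 8 genes, 6 had a positive and 2 a negative log2 fold change (ChC relative to Pv). *Erbb4* was at 4318 ± 792 CPM in ChC and 1673 ± 288 CPM in Pv batches (SD, n = 4 each). The next 2 genes by UMI were not higher in ChC, with *Slc32a1* at 2070 ± 563 and 2087 ± 916 CPM and *Gad1* at 1131 ± 553 and 1424 ± 900 CPM. *Pvalb*, which encodes parvalbumin, was at 153, 191, 97.5 and 81.6 CPM in ChC batches 1 to 4 and at 1623, 761, 550 and 1100 CPM in Pv batches 5 to 8. For this gene every Pv batch lay above every ChC batch. It belongs to a list of 5 genes of Pv fast-spiking cells, of which 3 had a negative and 2 a positive log2 fold change (ChC relative to Pv). The summed level of that list overlapped, at 2105, 3340, 752 and 1287 CPM in ChC and 2454, 2481, 1744 and 3823 CPM in Pv batches. Its most abundant gene, *Kcnc1*, was at 934 ± 528 CPM in ChC and 638 ± 434 CPM in Pv batches (SD, n = 4 each), and *Tac1* was highest in ChC batch 2, at 2056 CPM. The other 2 genes had a higher mean in Pv batches. *Kcnc2* was at 280 ± 160 CPM in ChC and 679 ± 475 CPM in Pv batches (log2 fold change -1.60). *Syt2* was at 7.35 ± 5.62 and 34.3 ± 25.9 CPM (log2 fold change -2.46). Of 8 pyramidal cell genes, 4 had no UMI in any cell (*Slc17a6*, *Neurod6*, *Tbr1* and *Emx1*). The summed level of that list was 123, 399, 104 and 284 CPM in ChC batches and 80.5, 16.2, 568 and 343 CPM in Pv batches, and its most abundant gene was *Cux2*. *Slc17a7*, the vesicular glutamate transporter of cortical pyramidal cells, was at 285 CPM in batch 7 and at 81.6 CPM or less in the other batches.

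Batch 6 stood apart from its label in a gene outside the receptor families, looked up after the counts were seen. *Xist*, the RNA that coats the silenced X chromosome in female cells, had between 48 and 2358 UMI in the other batches and 129 UMI in batch 5 of the same animal, but 0 UMI in the 15 cells of batch 6, which allows up to 5.98 CPM of its total. The Y-linked gene *Kdm5d* was at 49.8 CPM of total UMI in batch 6 (25 UMI), at 24.5 in ChC batch 3 (71 UMI), and at 1 UMI or less in each of the others. The other Y-linked genes looked up did not set batch 6 apart. *Ddx3y* and *Uty* had UMI in all 8 batches, at 7.98 and 9.97 CPM of total UMI in batch 6 against 24.1 and 13.1 in batch 5, and *Eif2s3y* had 2 UMI in batch 3 and 0 in the others. The labels give batches 5 and 6 to the same animal, and whether they share one was not tested. Values without batch 6 are therefore given for the fold changes and shares that moved most when it was left out.

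No receptor subunit differed between ChC and Pv cells past an adjusted p of 0.05. With edgeR's quasi-likelihood test over the animals, 0 of the 9 subunit genes that passed the filter on low counts were called, where 0 of all 9829 genes tested were called (0%). At an unadjusted p under 0.05 there were 616 genes (6.27%) and 0 of the 9 subunits. DESeq2 called 166 of the 10121 genes it gave an adjusted p (1.64%), none of them a subunit. At such shares a count of 0 among so few subunits is near the background. *Grin2c* did not pass the filter. Of the 9 subunits tested, 6 had a positive log2 fold change (ChC relative to Pv, here and below), with a median of 0.32, against a median of 0.04 and a positive share of 51.5% over all genes tested.

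**Figure D1:**
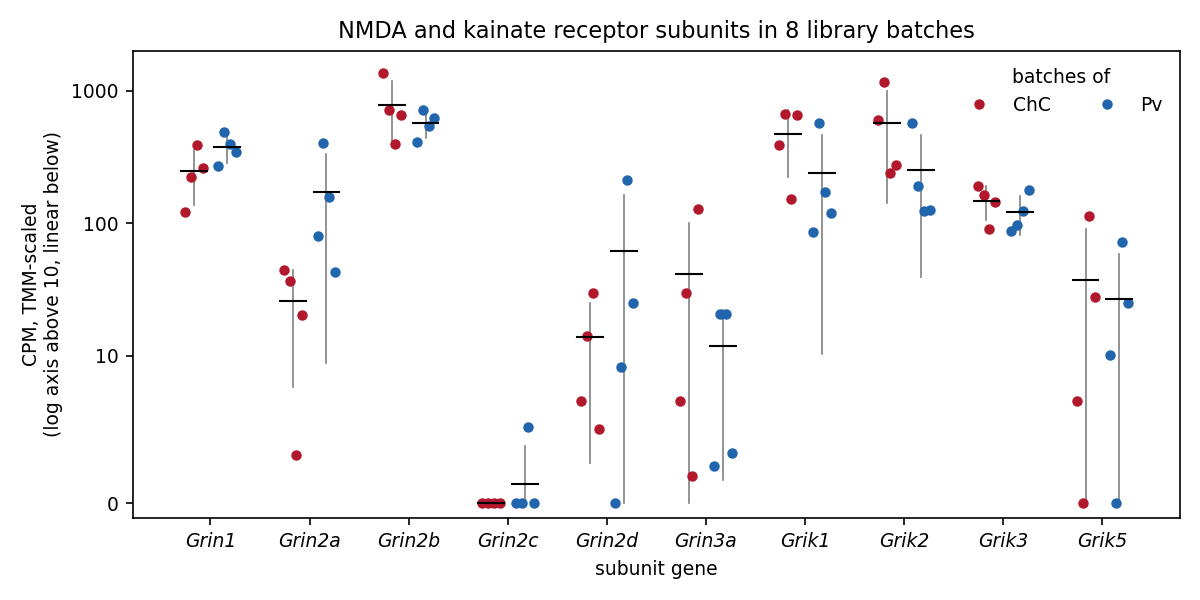
TMM-scaled CPM of each subunit gene (vertical axis, logarithmic above 10 and linear below) in the 4 ChC batches (red) and 4 Pv batches (blue), with the mean as a black bar and the SD as a grey line that stops at 0. *Grin2a* lies at 3.30 to 44.1 CPM in ChC and 43.1 to 403 CPM in Pv batches, and the batches of the 2 cell types overlap for every gene shown.

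*Grin1*, the obligatory NMDA receptor subunit, was found in most cells with 10000 UMI or more. Its level was 121, 222, 389 and 260 CPM in ChC batches 1 to 4 and 272, 491, 394 and 342 CPM in Pv batches 5 to 8. The lowest 3 of these values were ChC batches other than batch 3, the batch with the most UMI, which lay within the Pv range. The means were 248 ± 111 CPM for ChC and 375 ± 92.1 CPM for Pv batches (SD, n = 4 each), and the log2 fold change was -0.48 (SE 0.68, adjusted p = 0.991 with edgeR). It was -0.05 without animal 1, -1.09 without animal 2, -0.72 without batch 3, -0.29 without batch 4 and -0.28 without batch 6. After each cell was thinned to 10000 UMI, 44 of 49 ChC cells and 55 of 59 Pv cells had a *Grin1* UMI, with the lowest share in ChC batch 1 (8 of 11 cells, 72.7%). Without thinning they were 50 of 63 and 59 of 63. At 5000 UMI the mean share over batches was 55.8% in ChC and 80.4% in Pv.

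The count of *Grin1* depends on how its rows are read. It was the only subunit with 2 rows, of 1461 and 862 UMI, both on the minus strand of chromosome 2 and ending at different places, and in all 126 cells the smaller row was at or below the larger. Among 2229 gene names with several rows and any UMI, 883 had identical rows, so a sum can count a molecule more than once. The larger row alone held 51, 88, 645 and 171 UMI in ChC batches and 85, 109, 102 and 210 in Pv batches. The span of *Grin1* also overlaps *Lrrc26* and *E130003G02Rik*, with 1014 UMI between them, and whether counting used strand is not given in the sources used here.

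*Grin2b* made up most *Grin2* counts in both cell types. Its level was 1358, 715, 399 and 654 CPM in ChC batches 1 to 4 and 408, 720, 542 and 624 CPM in Pv batches 5 to 8. Apart from batch 1 the ChC values lay within or next to the Pv range, and the means of 781 ± 408 and 573 ± 132 CPM (SD, n = 4 each) differed by less than the spread between ChC batches. The log2 fold change was 0.32 (SE 0.58, adjusted p = 0.991 with edgeR) and ranged from -0.26 (without animal 1) to 0.74 with each animal or batch left out, with 0.51 without batch 6. A *Grin2b* UMI was present in 49 of 49 ChC cells and 58 of 59 Pv cells after thinning, and in 62 of 63 and 63 of 63 cells without it.

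*Grin2a*, the subunit gained with maturation, was higher in Pv cells, though not past the threshold. It had the largest fold change of the 9 subunits tested with edgeR over all 4 animals. This rank depended on single batches. Without batch 6 the log2 fold change was -1.77 for *Grin2a*, 2.33 for *Grin3a* and 1.93 for *Grik1*. Without batch 3 it was -2.44 for *Grin2a* and 2.88 for *Grin3a*. The level of *Grin2a* was 44.1, 36.7, 3.30 and 20.2 CPM in ChC batches 1 to 4, from 19, 21, 9 and 24 UMI. In Pv batches 5 to 8 it was 80.5, 403, 158 and 43.1 CPM, from 32, 174, 61 and 38 UMI. With this scaling the highest ChC batch lay just above the lowest Pv batch, so that 0 of the 9 subunits had every ChC batch below every Pv batch, as 159 of the 9829 genes did (1.62%), and 0 had every ChC batch above, as 251 did (2.55%). Scaled to total UMI, *Grin2a* did not overlap, at 36 CPM or less in ChC and 41.3 CPM or more in Pv batches, and it was the 1 subunit of 9 lower in every ChC batch, beside 201 genes in all (2.04%), with 0 higher, beside 213 (2.17%).

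Over the animals the log2 fold change of *Grin2a* was -2.80 (SE 1.26, unadjusted p = 0.0555 and adjusted p = 0.804 with edgeR's quasi-likelihood test over 9829 genes). Without batch 6 it was -1.77 (adjusted p = 1.00) and without animal 3 it was -1.65 (adjusted p = 1.00), against -4.24 without animal 1, in a range of adjusted p from 0.279 to 1.00 over the alternatives. The direction was the same in all 20 of these alternatives, and DESeq2 gave an unadjusted p of 0.0227 (adjusted p = 0.28). Batch 6 held 174 of the 305 Pv UMI of *Grin2a*, had no *Slc17a7* UMI and had the lowest summed pyramidal list of the 8 batches. *Camk2a*, known from pyramidal cells and looked up after its value was seen, was at 1060 CPM there, next to the highest level of 1147 CPM in batch 7. The part of RNA from other cells in the *Grin2a* level was not tested.

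*Grin2a* UMI were spread over many Pv cells. In batch 6 the richest cell gave 18.4% of the batch's *Grin2a* UMI and 14 of 15 cells had some. After thinning to 10000 UMI, at which a UMI stands for 100 CPM, *Grin2a* was found in 36.4%, 20%, 0% and 14.3% of cells in ChC batches 1 to 4 and in 53.3%, 92.3%, 86.7% and 31.3% in Pv batches 5 to 8. That is 8 of 49 ChC and 38 of 59 Pv cells, and the ranges of the batches overlapped. The 14 ChC and 4 Pv cells below 10000 UMI were left out, and without thinning the shares were 34 of 63 and 53 of 63. All ChC batches and Pv batches 5 (80.5 CPM) and 8 (43.1 CPM) were below what a UMI stands for at this depth. In either cell type, cells without a UMI therefore cannot be read as cells without the transcript. All 8 of the thinned ChC cells with *Grin2a* and 37 of the 38 Pv cells also had *Grin2b*.

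*Grin2d*, known in the adult cortex mostly from interneurons, varied more between batches of a cell type than between the cell types. It was at 6.96, 14, 29.7 and 5.05 CPM in ChC batches 1 to 4 and at 0, 9.26, 213 and 24.9 CPM in Pv batches 5 to 8. Batch 7 alone was far above the rest, with 82 of the 108 Pv UMI in 15 of its 16 cells, while batch 5 had 0 UMI, which allows up to 6.57 CPM of its total. The log2 fold change was -1.34 (SE 1.59, adjusted p = 0.991 with edgeR), 0.14 without batch 7 and 1.75 without animal 4. Batch 7 was also the batch with the highest *Slc17a7* and the highest summed pyramidal list (568 CPM), as well as the lowest GABAergic list. It had the highest summed oligodendrocyte list (234 CPM, mostly *Mbp*) and the second highest astrocyte list (345 CPM). The part of these in its *Grin2d* level was not tested.

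*Grin2c*, known mainly from cerebellum, was nearly absent. It had 2 UMI in all, in separate cells of batch 7, and 0 of the 5391779 UMI of the ChC cells, which allows up to 0.556 CPM of their total. *Grin3a*, whose subunit lowers calcium entry through the receptor, had 197 UMI, of which 151 were in ChC batch 4 and 48 in a single cell of that batch. It was at 6.96, 29.7, 1.83 and 127 CPM in ChC batches and at 2.52, 20.8, 20.8 and 3.40 CPM in Pv batches. Leaving aside batch 4, both cell types spanned a similar low range, and the log2 fold change of 1.54 (SE 1.39) had an adjusted p of 0.980 with edgeR. It became 0.07 without batch 4, 2.88 without batch 3, 2.33 without batch 6, 1.04 without batch 5, 0.94 without batch 8 and 0.91 without animal 2. Batch 4 also had the highest summed level of 6 genes of other interneurons, 1177 CPM against 60.3 to 665 CPM elsewhere. The most abundant gene of that list over all cells was *Cck*, *Reln* (459 CPM) and *Npy* (392 CPM) led it in batch 4, and *Vip* had no UMI in any cell. The astrocyte list (359 CPM), led by *Slc1a3*, and the microglia list (56.4 CPM), led by *Aif1*, were highest in batch 4 as well. The part of these in its *Grin3a* level was not tested.

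The balance of the *Grin2* subunits, which compares transcripts within a library and is not altered by scaling between libraries, separated the batches of the cell types. *Grin2a* took 3.13%, 4.79%, 0.764% and 2.97% of the UMI of *Grin2a* to *Grin2d* in ChC batches 1 to 4, and 16.5%, 35.6%, 17.2% and 6.23% in Pv batches 5 to 8. *Grin2b* took 96.4%, 93.4%, 92.4% and 96.3% in ChC and 83.5%, 63.6%, 59% and 90.2% in Pv batches. Every ChC batch was below every Pv batch for *Grin2a* and above every Pv batch for *Grin2b*. The gap was narrow, since the exact 95% binomial intervals of ChC batch 2 (2.99% to 7.24% *Grin2a*) and Pv batch 8 (4.45% to 8.45%) overlap. The 2 Pv animals also differed widely among themselves, as did the batches of each. The shares of a batch add up to a whole, so the orders for *Grin2a* and *Grin2b* are not independent of each other. How often shares within other gene families separate the batches was not counted.

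**Figure D2:**
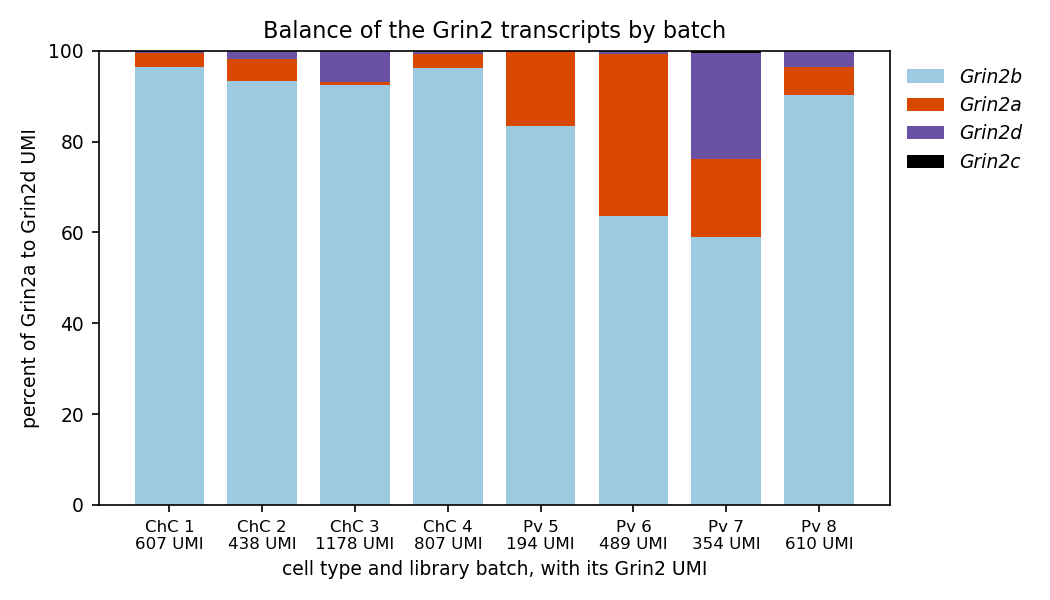
Percent of the UMI of *Grin2a* to *Grin2d* (vertical axis, stacked to 100) taken by each gene in the 4 ChC and 4 Pv batches, with the number of *Grin2* UMI under each bar. *Grin2b* takes 92.4% or more in every ChC batch and 59% to 90.2% in Pv batches, where *Grin2a* is largest in batch 6 and *Grin2d* in batch 7.

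Per animal, *Grin2a* took 3.83% and 1.66% of *Grin2* UMI in ChC and 30.2% and 10.3% in Pv animals. The means were 2.75% ± 1.53 (SD, n = 2) and 20.2% ± 14.1 (SD, n = 2), a difference of -17.47 percentage points with p = 0.333 in a two-sided exact permutation test, the smallest p that 2 animals against 2 allow. *Grin2b* took 94.5% ± 0.824 and 74.0% ± 6.70 (SD, n = 2 each) in ChC and Pv animals, with the same exact p of 0.333. For these shares the batches, 4 against 4, gave an exact permutation p of 0.0286, also the smallest possible. Batches of an animal are not independent, however, and neither are the 2 shares. Without batch 6 the difference in the *Grin2a* share over animals was -10.6 percentage points, and without animal 3 it was -7.52, in the same direction, and the difference in the *Grin2b* share went from 20.5 to 13.4 without batch 6. An exact permutation test over 4 animals cannot place the difference past the threshold, and no other test of the shares over animals was run.

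For *Grin2d* the balance gave no order of the cell types. Its share was 0.494%, 1.83%, 6.88% and 0.743% in ChC batches and 0%, 0.818%, 23.2% and 3.61% in Pv batches. ChC batch 3 lay above all Pv batches but batch 7, and the difference over animals of -2.97 percentage points (two-sided exact permutation p = 1) became 0.622 without batch 7. Together, *Grin2a* and *Grin2d* made batch 7 the batch with the lowest share of *Grin2b*.

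The difference in balance was also visible cell by cell. Among cells with at least 5 *Grin2* UMI, the median share of *Grin2a* was 1.43% in 55 ChC cells and 15.6% in 58 Pv cells. More than 10% *Grin2a* was seen in 5 of the ChC and 40 of the Pv cells. The batch medians were 3.13%, 3.33%, 0% and 1.48% in ChC and 15.8%, 33.1%, 16.1% and 4.71% in Pv, so that batch 8 lay close to the ChC batches at the level of cells too. All 14 such cells of batch 6 were at 25.8% or more. *Grin2a* exceeded *Grin2b* in 1 cell, of batch 6, and in none of the ChC cells.

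**Figure D3:**
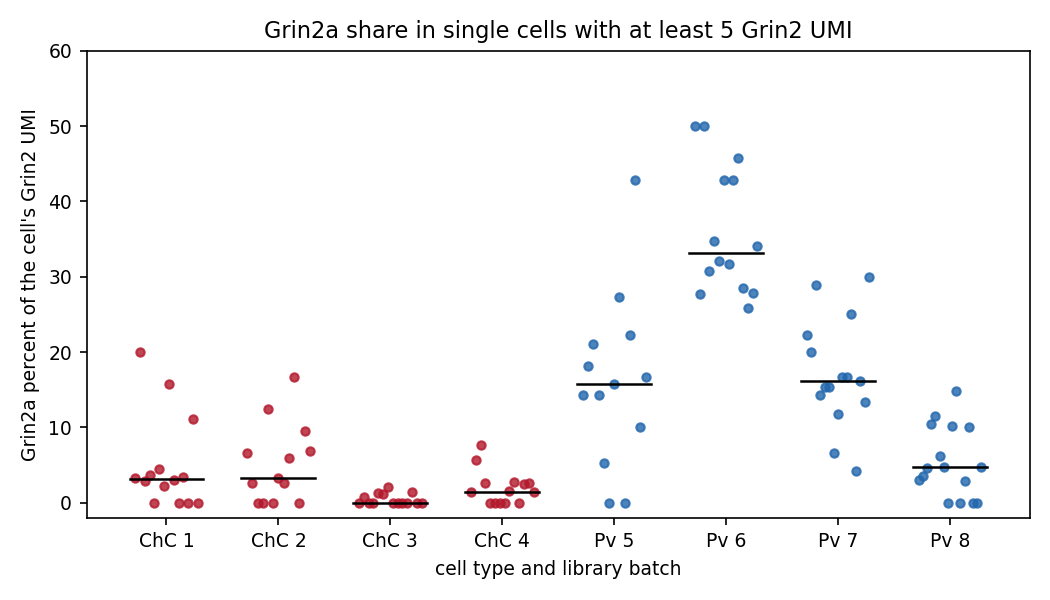
*Grin2a* as a percent of the *Grin2a* to *Grin2d* UMI of a cell (vertical axis) for each cell with at least 5 such UMI, by batch, in ChC (red, 55 cells) and Pv (blue, 58 cells), with the batch median as a black bar. The ChC medians lie between 0% and 3.33% and the Pv medians between 4.71% and 33.1%.

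The 4 kainate receptor genes described here took a larger share of the counts in both ChC animals than in either Pv animal, though an exact permutation test over 4 animals cannot pass the threshold. *Grik1*, *Grik2*, *Grik3* and *Grik5* together made up 43.7%, 66.3%, 42.1% and 50.9% of the UMI of all 10 subunits in ChC batches and 49.7%, 34.4%, 27% and 30.1% in Pv batches. Batch 5 lay within the ChC range and the other Pv batches below it. Per animal the share was 57.1% and 45.6% in ChC and 39.8% and 29.0% in Pv, a difference of 16.9 percentage points (two-sided exact permutation p = 0.333, the smallest possible), and over the batches the exact p was 0.0857. The difference was 12.0 percentage points without batch 6 (exact permutation p = 0.667), 10.2 without batch 2, and 11.1 without animal 1. Without batch 6 the order of the animals was lost, since batch 5 alone (49.7%) lay above the lower ChC animal (45.6%). These shares count both rows of *Grin1*, and with its larger row alone the difference over animals was 16.8 percentage points.

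*Grik4*, which encodes another kainate receptor subunit that needs a partner, was not among these genes and was lower in ChC batches. It was looked up after its value was seen, and had 95 UMI in all. Every ChC batch was at 6.96 CPM or less and every Pv batch at 7.55 CPM or more, as in 1.62% of the 9829 genes tested, with a log2 fold change of -3.29 (SE 1.63, adjusted p = 0.846 with edgeR). Pv batch 8 held 66 of the UMI, and the batches nearest to each other (1 and 5) held 3 each. Without batch 8 the Pv mean went from 28.7 to 13.3 CPM and the gene did not pass the filter, as in several other alternatives. Batch 8 also had the highest summed vascular list (121 CPM, mostly *Rgs5*), and the part of this in its *Grik4* level was not tested. With *Grik4* counted among the kainate receptor genes, the difference in their share was 15.6 percentage points.

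*Grik1* and *Grik2*, which encode pore-forming subunits that can act without a partner, were the most abundant kainate receptor genes. *Grik1* was at 392, 671, 154 and 655 CPM in ChC batches 1 to 4 and at 85.6, 574, 171 and 119 CPM in Pv batches 5 to 8. *Grik2* was at 601, 1166, 240 and 275 CPM in ChC and at 569, 190, 125 and 126 CPM in Pv batches. For each gene a single Pv batch lay among the higher ChC values, batch 6 for *Grik1* and batch 5 for *Grik2*, although the labels give both batches to animal 3, and the other Pv batches were below every ChC batch for *Grik2* and close to or below the lowest for *Grik1*. The log2 fold changes were 0.83 (SE 0.74, adjusted p = 0.977) and 1.21 (SE 0.84, adjusted p = 0.934) with edgeR. Both values depended on single batches and animals. That of *Grik1* became 1.93 without batch 6, 1.37 without batch 3, 0.26 without batch 5, 0.39 without animal 1, 1.72 without animal 3 and 0.28 without animal 4. That of *Grik2* became 0.67 without batch 6, 1.89 without batch 5, 0.03 without animal 1, 1.84 without animal 2, 2.28 without animal 3 and 0.60 without animal 4.

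The batches labelled as animal 3 differed widely. *Grik2* took 75.6% of the kainate receptor UMI in batch 5 and 22% in batch 6, and *Grik1* took 11.4% and 66.7%. Batch 5 had 299 and batch 6 had 372 such UMI, and in both the richest cell gave 20.6% or less of the batch's UMI of either gene. These are also the batches that differed in *Xist*, so their spread cannot be read as that within a mouse.

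*Grik3*, another pore-forming subunit, was the steadiest of the kainate receptor genes. It was at 190, 164, 89.8 and 146 CPM in ChC batches 1 to 4 and at 88.1, 97.2, 125 and 177 CPM in Pv batches 5 to 8, nearly the same range, with a log2 fold change of 0.16 (SE 0.88, adjusted p = 0.999 with edgeR). *Grik5*, whose subunit needs a partner to form a channel, was at 6.96, 0, 114 and 27.8 CPM in ChC and at 10.1, 0, 72.7 and 24.9 CPM in Pv batches. Batch 3 held 311 of its 401 UMI, and each cell type had a batch at 0, which allows up to 4.56 CPM of the total in batch 2 and 5.98 CPM in batch 6. Its log2 fold change of 1.09 (SE 1.75, adjusted p = 0.991 with edgeR) became -0.43 without batch 3.

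Levels of different genes were compared per kilobase of the longest coding transcript, although counts primed from the poly(A) tail need not scale with length, and the order depended on this division. In ChC batches the order of the mean level was *Grik1* (162 ± 84.8 CPM per kb, SD, n = 4), *Grik2* (119 ± 89.4), *Grin2b* (104 ± 54.5) and *Grin1* (58 ± 25.9), then *Grik3* (16.4 ± 4.75). As CPM without division the order was *Grin2b* (781), *Grik2* (571), *Grik1* (468) and *Grin1* (248). The leading 3 did not differ beyond their spread on either scale. Per kilobase, *Grin1* was above *Grik3* in 4 of 4 batches. *Grik5*, *Grin3a*, *Grin2a* and *Grin2d* followed at 9.69 CPM per kb or less with overlapping ranges.

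In Pv batches the order was *Grin1* (87.7 ± 21.5 CPM per kb, SD, n = 4), *Grik1* (82.1 ± 78.5), *Grin2b* (76.6 ± 17.7), *Grik2* (52.5 ± 44.4) and *Grin2a* (35.5 ± 33.5), with each within the spread of its neighbours. As CPM without division it was *Grin2b* (573), *Grin1* (375), *Grik2* (252), *Grik1* (237) and *Grin2a* (171). *Grik3* (13.6 ± 4.45), *Grin2d*, *Grik5* and *Grin3a* were lower. With the larger row of *Grin1* alone its level was 38.2 ± 11.9 in ChC and 56.7 ± 5.10 CPM per kb in Pv batches, which places it below *Grin2b* in both. The length used for *Grik1* lacks 299 bases at the end of its row. *Grin2a* was at rank 8 of 10 in ChC and at rank 5 in Pv batches on both scales, but this rested on single batches. Without batch 6 the Pv mean of *Grin2a* was 94.0 ± 58.8 CPM (SD, n = 3), below *Grik3* (130 ± 44.6) and *Grik1* (125 ± 43.2) at rank 6, and its rank per kilobase was 5. Without batch 5 the Pv mean of *Grik2* was 147 ± 37.3 CPM (SD, n = 3), below *Grin2a*.

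Since the reads were primed from the poly(A) tail, the end that each row gives a transcript bears on what could be counted. On mm9, *Grin2a* lies on chr16:9577803-9992626, *Grin2d* on chr7:53087853-53122051 and *Grik1* on chr16:87896142-88290503, all on the minus strand, and *Grik3* on chr4:125168075-125391417 on the plus strand. The row of *Grin2a* ends 117 bases after its stop codon and that of *Grin2d* 227 bases after, and the row of *Grin3a* (chr4:49678098-49857953, minus strand) ends at the stop codon. In the GENCODE vM1 annotation of the same build, *Grin3a* runs on for 3615 bases and *Grin2d* for 600, and *Grin2a* ends at the same base as its row. The last 30 bases of 4 rows are shown, with the poly(A) signal AATAAA in capitals where it is present.
Grin2a (chr16:9577803-9577832, minus): ctaggaggaagaggatatagggaggtattt
Grin2d (chr7:53087853-53087882, minus): gggctttttaacgtcacctgattggcggga
Grik1 (chr16:87896142-87896171, minus): AATAAAcaagcggattttgtttttcatagc
Grik3 (chr4:125391388-125391417, plus): aattttaAATAAAtgtttttagaaaatggg

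The signal AATAAA or its variant ATTAAA, read on the transcribed strand, was in the last 30 bases of 59.7% of 25848 rows placed once in the genome. It was in those of *Grik1*, *Grik3*, *Grik5* and *Grin2c* and in none of the rows of *Grin1*, *Grin2a*, *Grin2d*, *Grin3a* and *Grik2*. How molecules that end beyond a row were counted is not given in the sources used here, and its part in the low levels of *Grin2a*, *Grin2d* and *Grin3a* was not tested. The rows are the same for ChC and Pv cells, and whether the cell types differ in where these transcripts end was not tested.

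The other genes of the glutamate receptor system gave no call either with edgeR over the animals, as no gene did. Calls with DESeq2 are not given for these lists. Of 11 other ionotropic receptor and auxiliary genes, 11 were tested, 0 were called and 2 had an unadjusted p under 0.05 (6.27% of all genes tested did), with 4 positive and 7 negative log2 fold changes and a median of -0.55. The 3 with the most UMI were AMPA receptor subunits. *Gria1* was at 2460, 7340, 3560 and 5548 CPM in ChC and 1621, 1768, 605 and 1793 CPM in Pv batches (log2 fold change 1.58, SE 0.39, adjusted p = 0.598 with edgeR). *Gria4* was at 2562 ± 1222 and 759 ± 373 CPM (SD, n = 4 each), with a log2 fold change of 1.77 (SE 0.47) and the same adjusted p, and *Gria2* at 637 ± 380 and 289 ± 100 CPM, with 1.29 (SE 0.60, adjusted p = 0.817). *Gria1* and *Gria4* each had every ChC batch above every Pv batch, as did 2.55% of all genes tested, and they are the 2 genes with the unadjusted p under 0.05.

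Scaffold and signaling genes of NMDA and kainate receptors numbered 31, of which 27 were tested and 0 called, with 12 positive and 15 negative log2 fold changes and a median of -0.11. *Dlgap1*, a scaffold of the postsynaptic density, was at 4191 ± 1304 CPM in ChC and 4700 ± 935 CPM in Pv batches (SD, n = 4 each), and *Dlg2*, which encodes PSD-93, at 2216 ± 567 and 2251 ± 1006 CPM. *Dlgap2* was at 629 ± 241 and 512 ± 206 CPM. These abundant scaffolds thus differed by less than the spread between batches. *Rasgrf2*, an exchange factor downstream of NMDA receptors that was picked out after its value was seen, was the 1 gene with an unadjusted p under 0.05, which 6.27% of all genes tested had (log2 fold change -2.16, SE 0.88, adjusted p = 0.756 with edgeR). It was at 20.9, 299, 1.47 and 137 CPM in ChC and at 1288, 71.7, 179 and 375 CPM in Pv batches. The cell types overlapped, and the fold change was -0.79 without batch 5 and -3.86 without batch 2.

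Genes that supply the co-agonists glycine and D-serine were sparse. Of 9, 5 were tested, 0 were called, and 4 of the 5 had a negative log2 fold change, with a median of -0.55. *Srr*, which makes D-serine, was at 31.7 ± 32 CPM in ChC and 35.5 ± 16.8 CPM in Pv batches (SD, n = 4 each). The transporter genes *Slc1a4* (17.1 ± 17.1 and 60.3 ± 46.9 CPM) and *Slc7a10* (20.6 ± 27.5 and 44.2 ± 32 CPM) overlapped between the cell types. Among 8 genes of glutamate uptake and glutamine metabolism, all tested, 0 were called, 5 were positive and 3 negative, with a median of 0.27.

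Of these, *Slc38a1*, a glutamine transporter, was at 959 ± 358 CPM in ChC and 1761 ± 1706 CPM in Pv batches (SD, n = 4 each). *Glul*, which encodes glutamine synthetase, was at 313 ± 241 and 281 ± 341 CPM, and *Slc1a2*, a glutamate transporter, at 339 ± 291 and 296 ± 489 CPM. Both are known as astrocyte genes as well. The summed level of 6 astrocyte genes was between 23.2 and 359 CPM over the 8 batches, with *Slc1a3* the most abundant and *Gfap* at 0. The part of RNA from other cells in these values was not tested.

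The genes whose levels ran most like those of 4 subunits over the 8 batches were named as a description. The comparison took 3431 genes with at least 400 UMI, and the batches share animals and cell types. *Grin2a* ran closest to *Atp6v0d1* and *Glrb* (Spearman rho 0.952 each), then *Stk39* (0.905), with which 1 gene not named here tied. *Grin2b* ran closest to *Rtn3*, *Eef1b2* and *Hnrnpul2* (0.952 each), *Grin1* to *Clmp* (0.976), *Slc25a12* and *Fbxl16* (0.952 each, as had 1 gene not named here), and *Grin2d* to *Hp1bp3* and *Ncoa1* (0.905 each) and *Scaper* (0.881). Ties were ordered by UMI. *Glrb* encodes a subunit of the glycine receptor, and none of the 12 genes encodes another glutamate receptor subunit.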

How the data were processed

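Hand-picked cells, 63 ChC and 63 Pv with counts in 8 library batches, were amplified from poly(A) RNA. Reads were placed on the mm9 genome by the authors using Bowtie 0.12.7, repeated reads of a tag on a gene were collapsed, and the deposited values are the resulting counts per transcript and cell, without normalization. Rows of a gene name were summed here. Cells were assigned to batches, animals and cell types from the labels. The members and the gene lists were chosen with earlier results of these data known.

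UMI summed per animal were compared with edgeR 4.0.16 in R 4.3.3 (quasi-likelihood test, TMM, filter on low counts, Benjamini-Hochberg adjustment over all genes tested, threshold 0.05), tested on simulated data. That simulation used large changes at a fixed variability, so it does not give the power of the test in these data. Shares were compared by two-sided exact permutation over the 4 animals, where p cannot fall under 0.333. Alternatives used DESeq2 1.42.0, limma 3.58.1 (voom with the animal as random block), no filter, batches as samples, the row with the most UMI, total UMI scaling, thinned or deep cells, and each animal or batch left out. Thinning to 10000 UMI used numpy 2.4.6. Of each list other than the marker lists, genes that passed the test or, where fewer than 3 did, the 3 with the most UMI were named. Genes named beside these were picked out after their values were seen. Marker genes were named without this rule. Transcript lengths and ends came from GENCODE vM1, and end sequences from the mm9 genome. The transcript end of *Grin2b* is not reported here. Binomial intervals are exact (Clopper-Pearson, 95%), a count of 0 allows 3 counts of the total, and both cover counting error only. The 2 columns without UMI were left out.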

Additional observations from a re-analysis of the deposited data

Results flagged for a closer look

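In each cell type, the 4 batches were examined for a batch whose gap to its neighbor took more of the whole range than Dixon's 95% critical value, for the CPM of each subunit, the *Grin2* shares and the kainate share. Of 28 such groups with any spread, 5 had such a batch. Pv batch 7 accounted for 4 of them: *Grin2d* at 213 CPM against 24.9 CPM in the next batch, the *Grin2d* share of *Grin2* UMI at 23.2% against 3.61%, and *Grin2c* at 5.19 CPM and 0.565% of *Grin2* UMI, which rest on 2 UMI against 0 in the other Pv batches. In batch 7, 15 of 16 cells had a *Grin2d* UMI and the richest cell gave 19.5% of them. The fifth was *Grik2* in Pv batch 5, at 569 CPM against 190 CPM in the next batch, found in 16 of 16 cells. The count of 5 cannot be set against the 1 in 20 that chance gives, since the measures are not independent of each other. A gene with UMI in a single batch of a cell type also passes by construction, as *Grin2c* did. Causes were not tested.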

How the results depend on the processing

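No subunit passed an adjusted p of 0.05 in any of the 20 alternatives to the test over animals, in which the number of genes called out of all tested was 166 with DESeq2 (1.64%), 80 without the filter (0.484%), 5 with batches as samples (0.0771%), 6 with the animal as random block (0.0926%), and 7 to 100 with each animal left out (0.0591% to 0.888%), against 0 in the main comparison. Leaving out a batch before summing was chosen after seeing the data and called 0 genes, or 1 without Pv batch 7. Leaving out an animal leaves a cell type with 1 sample, assumed to vary like the others. The fold changes of *Grin1*, *Grin2a*, *Grin3a*, *Grik1* and *Grik2* kept their direction in all alternatives that gave a value, but not their size, at -1.09 to -0.05 for *Grin1*, -4.24 to -1.65 for *Grin2a*, 0.07 to 2.88 for *Grin3a*, 0.26 to 1.93 for *Grik1* and 0.03 to 2.28 for *Grik2*. The log2 fold change turned to -0.26 for *Grin2b* without animal 1, to 1.75 (animal 4) and 0.14 (batch 7) for *Grin2d*, to -0.20 (animal 1) and -0.13 (animal 3) for *Grik3*, and to -2.83 (animal 2) and -0.43 (batch 3) for *Grik5*, and with each animal or batch left out these genes ranged up to 0.74 for *Grin2b*, from -2.58 for *Grin2d*, and up to 0.55 for *Grik3* and 3.22 for *Grik5*. The filter removed *Grin2d* in 3 alternatives and *Grin3a* in 1.

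With batches as samples, which share animals, the exact permutation p was 0.0286 for the shares of *Grin2a* (difference -16 percentage points) and *Grin2b* (20.5). These shares are not independent of each other. With each animal or batch left out, the differences ranged from -27.4 to -7.52 for *Grin2a*, from 13.4 to 30.4 for *Grin2b* and from -9.16 to 2.13 for *Grin2d*, which turned positive without animal 4 (2.13) and without batch 7 (0.622). The kainate difference ranged from 11.1 to 22.7 without an animal and, added after seeing the data, from 10.2 to 21.5 without a batch, and was 15.6 with *Grik4* included. The exact permutation test over 4 animals cannot pass the threshold, so its p says nothing of stability.

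Mean shares of cells with a UMI over batches depended on depth. In ChC they were 17.7% for *Grin2a* and for *Grin2a* with *Grin2b*, and 54.2% for both without thinning. *Grin2d* moved from 11.4% to 39.7% and *Grin2b* from 100% to 98.4%. At 5000 UMI the ChC means were 10.7% for *Grin2a*, 1.79% for *Grin2d*, 90.4% for *Grin2b* and, from 88.9%, 55.8% for *Grin1*. At that depth in Pv *Grin2b* moved from 98.3% to 90.2%, *Grin1* from 93.2% to 80.4% and *Grin2d* from 28.3% to 18.2%, or 50.4% without thinning. *Grin3a* moved from 16.1% in ChC and 10.3% in Pv to 10.5% and 1.79% at 5000 UMI, or 49.9% and 19.1% without thinning. Levels without a batch were also added after seeing the data. No paired analysis was possible because the cell types share no batch or animal. The cause of the other changes was not tested.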
